A study of Homo sapiens with 6 samples.

Results

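Genes of G protein, cyclic AMP (cAMP) and arrestin signalling were examined in cultures of the human neuroblastoma line SK-N-SH that had or had not received dopamine for 6 h. A list of 59 gene symbols was looked up in the deposited table of 26789 genes. The symbols were chosen for their role in this pathway, with earlier results of these data known. The table held 57 of them. ADCY2 and PDE1B were not analysed here. Of the 57 genes, 44 had a mean of 1 FPKM or more and were tested, and 13 lay below that level. FPKM divides a gene's fragment number by its length and by the library's size.

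All 6 samples came from the same line, labelled wild type, and had grown for a day in standard medium with serum. The 3 control samples then received medium alone and the 3 dopamine samples received dopamine. The dose is printed as 40 M in the labels, apparently without its prefix, and is not used here. The series design text names the subline SH-SY5Y as the treated cells, whereas the sample labels all say SK-N-SH. Nothing in the labels says whether replicates were separate cultures, and the spread behind each p-value may therefore be technical.

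Receptors for dopamine and noradrenaline act through heterotrimeric G proteins, each made of an alpha, a beta and a gamma subunit. Alpha subunits of the Gs class switch on adenylyl cyclases, which make cAMP, and those of the Gi class hold them back. The D1-like dopamine receptors couple to the Gs class and the D2-like receptors to the Gi class. cAMP frees the catalytic subunits of protein kinase A (PKA) from its regulatory subunits and also opens the Epac exchange factors, while phosphodiesterases break it down. G protein-coupled receptor kinases (GRKs) and arrestins silence the receptors, and RGS proteins speed the return of alpha subunits to their resting state.

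No member passed an adjusted p of 0.05 (limma, two-sided, Benjamini-Hochberg over all 11791 tested genes), where 12 genes or 0.102% of all did. The smallest adjusted p of a member was 0.11. Without adjustment 17 of 44 members (38.6%) had a p under 0.05, against 32.5% of all tested genes. Of these, 12 had a higher mean with dopamine and 5 a lower one, against 24.4% and 8.05% of all genes. The split among members depended on how the libraries were scaled. It was 9 higher and 10 lower after median-of-ratios scaling (43.2% of members, against 31% of all genes). This scaling moved the all-gene median of the log2 fold change from 0.08 to -0.02. After quantile normalization the split was 9 and 9 (40.9%, against 29.2%). The split of all genes under these scalings is not given here. The median log2 fold change was 0.01 over the members and 0.08 over all tested genes. The members' share at this level was thus above that of all genes in each of these settings. It was below it after a correction for GC content and length, given further on (9.09%, against 16.8%). The share was also below that of all genes when libraries were weighted by their quality (40.9%, against 43%). Without dopamine replicate 3 it was 11.6%, against 16.9%. Whether the share differs from the background was not tested.

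In 18 of the 44 tested members (40.9%) the groups did not overlap, with dopamine values above control in 9 and below in 9. Over all tested genes this held for 38.4% in all, 24.4% above and 14.1% below. Both criteria together, no overlap and an unadjusted p under 0.05, were met by 14 members (31.8%) and by 26.9% of all genes. The gene with the largest log2 fold change among the tested members was RGS2, a regulator that acts mainly on the Gq class, 1.86-fold higher in dopamine cells on the scale of FPKM + 0.5. RGS2, RGS4 and the PKA subunit gene PRKAR1B had an unadjusted p under 0.05 in the main test and in all 19 alternative analyses. The other 14 members did not hold that level throughout. The share of all tested genes that held it throughout was not counted, and the analyses reuse the same libraries.

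**Figure D1:**
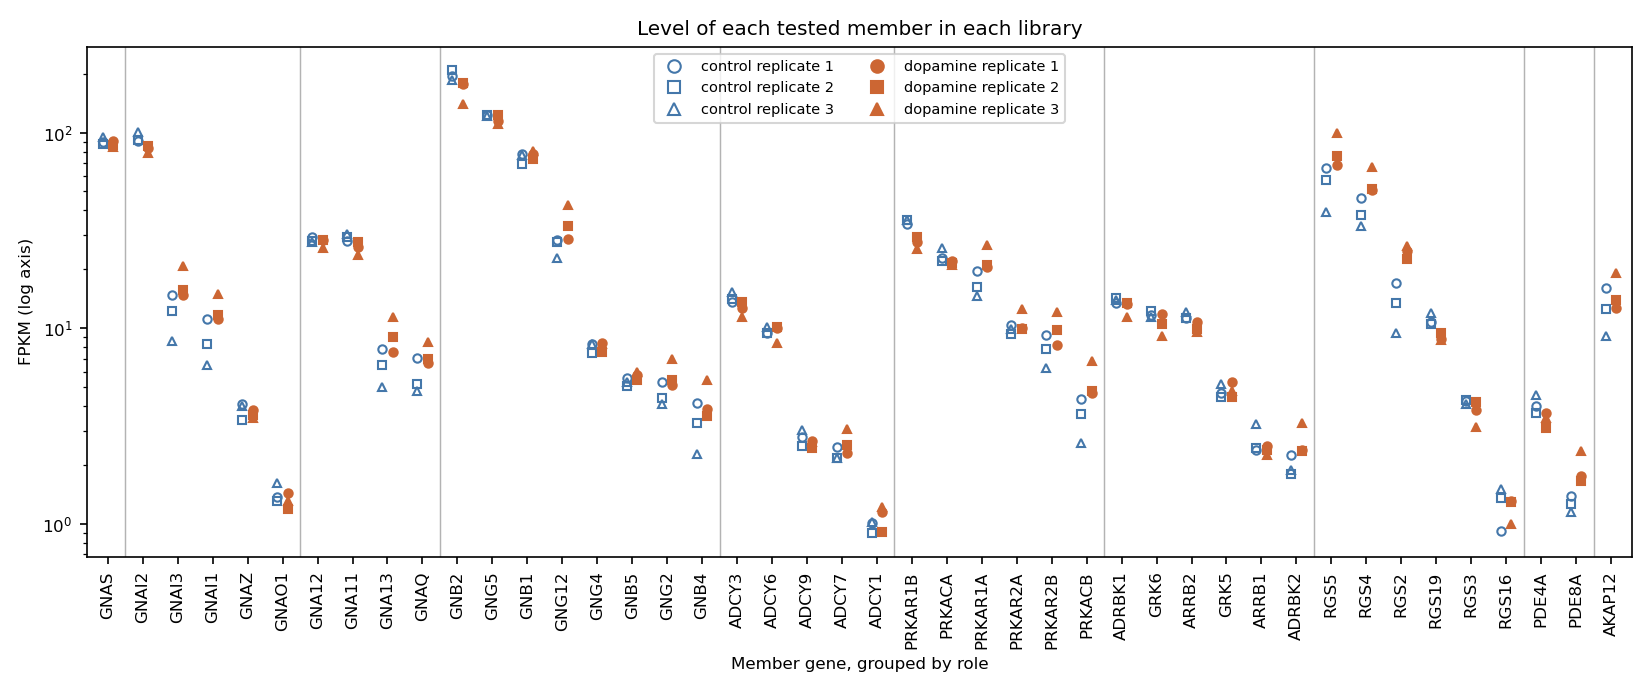
Each point is the FPKM of a tested member in a library, on a log axis, with genes grouped by role and ordered by level (open blue, control; filled orange, dopamine; circle, square and triangle, replicates 1, 2 and 3). RGS2, RGS4 and RGS5 stand higher in every dopamine library and PRKAR1B lower, whereas the points of GNAS overlap.

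The promoters of RGS2, RGS4 and PRKAR1B are shown because these genes kept an unadjusted p under 0.05 in all analyses. They were chosen after their values were seen. A cAMP response element (CRE) has the letters TGACGTCA, and its core has the letters TGACG, or CGTCA on the other strand. Each sequence gives the 250 bases before the start in RefSeq on the GRCh38.p14 build, 5′ to 3′ on the gene's strand, with a match to the core on either strand in capitals. The windows are chr1:192808789-192809038 on the plus strand for RGS2, chr1:163068621-163068870 on the plus strand for RGS4 and chr7:727677-727926 on the minus strand for PRKAR1B.
RGS2: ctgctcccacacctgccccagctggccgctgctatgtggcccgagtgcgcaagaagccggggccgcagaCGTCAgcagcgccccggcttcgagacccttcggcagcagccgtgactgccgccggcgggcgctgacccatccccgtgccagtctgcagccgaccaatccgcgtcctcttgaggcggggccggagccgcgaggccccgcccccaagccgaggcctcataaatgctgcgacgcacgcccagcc
RGS4: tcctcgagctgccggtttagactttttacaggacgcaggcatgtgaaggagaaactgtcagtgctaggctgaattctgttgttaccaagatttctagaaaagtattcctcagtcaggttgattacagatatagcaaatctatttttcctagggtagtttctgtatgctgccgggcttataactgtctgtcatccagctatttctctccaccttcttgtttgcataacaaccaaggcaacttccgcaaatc
PRKAR1B: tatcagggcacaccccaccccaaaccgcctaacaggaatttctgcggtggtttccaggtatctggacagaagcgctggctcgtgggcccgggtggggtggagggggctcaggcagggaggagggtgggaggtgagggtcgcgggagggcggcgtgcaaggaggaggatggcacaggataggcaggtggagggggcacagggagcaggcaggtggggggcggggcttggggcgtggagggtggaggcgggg
The RGS2 window held 1 core match, whose first base lay 181 bases before the start, and the other two windows held none. GC content was 72.8% in the RGS2 window, 42.8% in that of RGS4 and 69.2% in that of PRKAR1B. Of 57 members 47 had a promoter in the table, and 10 of these (21.3%) held the core, against 5914 of 27305 promoters (21.7%). The full element was found in 1 member, GNAO1, and in 482 of all promoters (1.8%). Every full element holds the core on both strands. The core was therefore as frequent among the members as elsewhere, and a match is a description of these letters, not a site in use.

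Among the tested members, the RGS group held the largest log2 fold change. RGS2 (ENSG00000116741.6, hg19 chromosome 1, 192778169 to 192781403) had 17.1, 13.4 and 9.44 FPKM in control replicates 1, 2 and 3 and 24.7, 22.6 and 26.3 FPKM in dopamine replicates 1, 2 and 3. The lowest dopamine library stood above the highest control library, and the control libraries differed among themselves more than the dopamine libraries did. Its log2 fold change was 0.90 (95% interval 0.50 to 1.29, unadjusted p = 0.000583, adjusted p = 0.11). RGS4 and RGS5, which act on the Gi and Gq classes, are neighbours on the same chromosome. RGS4 (163038565 to 163046592) had 46.1, 37.9 and 33.3 FPKM in control and 50.8, 51.7 and 66.6 FPKM in dopamine cells, a log2 fold change of 0.52 (unadjusted p = 0.00375). RGS5 (163080911 to 163291577), the most abundant RGS gene, had 65.9, 57.5 and 39.2 FPKM in control and 68.5, 75.9 and 99.7 FPKM in dopamine cells, a log2 fold change of 0.60 (unadjusted p = 0.0115). In both neighbours the groups did not overlap, but control replicate 1 and dopamine replicate 1 lay close to each other.

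RGS19, which acts on the Gi class, was the only RGS gene among the members whose dopamine values all lay below the control values. It stood at 10.8, 10.5 and 11.96 FPKM in control and 8.79, 9.49 and 8.70 FPKM with dopamine (log2 fold change -0.29, unadjusted p = 0.0108, adjusted p = 0.111). RGS3 and RGS16 had means of 3.97 and 1.24 FPKM with overlapping groups, and RGS9, known for its part in dopamine signalling of the striatum, was barely detected at 0.246 FPKM. RGS2 was also higher relative to RGS5, with a ratio of 0.259, 0.233 and 0.241 in control and 0.361, 0.298 and 0.264 in dopamine cells. The groups of this ratio did not overlap, although dopamine replicate 3 lay just above control replicate 1.

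PKA was the other group with a member at an unadjusted p under 0.05 in every analysis. PRKAR1B (ENSG00000188191.10, hg19 chromosome 7, 588834 to 767287), a regulatory subunit gene with mainly neuronal expression, was the most abundant PKA gene here. It had 33.9, 35.8 and 35.8 FPKM in control and 27.5, 29.2 and 25.4 FPKM in dopamine cells, a log2 fold change of -0.36 (95% interval -0.53 to -0.18, unadjusted p = 0.00121, adjusted p = 0.11). The 3 control values lay close together and above all dopamine values. Its span overlaps HEATR2 on the opposite strand, at 16.4 FPKM, so its value is uncertain if reads were counted without strand. Its paralogue PRKAR1A, the widely expressed type I regulatory subunit gene, went the other way, with 19.6, 16.2 and 14.6 FPKM in control and 20.6, 21.0 and 26.5 FPKM with dopamine (log2 fold change 0.43, unadjusted p = 0.00899). The ratio of PRKAR1A to PRKAR1B was accordingly 0.577, 0.453 and 0.407 in control and 0.750, 0.720 and 1.04 in dopamine cells, with no overlap.

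The catalytic subunit genes had a like pattern. PRKACB stood at 4.36, 3.65 and 2.59 FPKM in control and 4.67, 4.76 and 6.78 FPKM with dopamine (log2 fold change 0.55, unadjusted p = 0.0159), whereas the more abundant PRKACA had means of 23.6 ± 1.94 and 21.6 ± 0.529 FPKM (SD, n = 3 per group; unadjusted p = 0.167). The type II regulatory genes PRKAR2A and PRKAR2B had means of 10.3 and 8.91 FPKM over all libraries, and their groups overlapped. Summed over the family, the ratio of regulatory to catalytic subunits was 2.57 ± 0.198 in control and 2.63 ± 0.139 in dopamine cells, with overlapping groups. PPP1R1B, which encodes the PKA-regulated phosphatase inhibitor DARPP-32 of striatal neurons, was barely detected at 0.0324 FPKM.

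**Figure D2:**
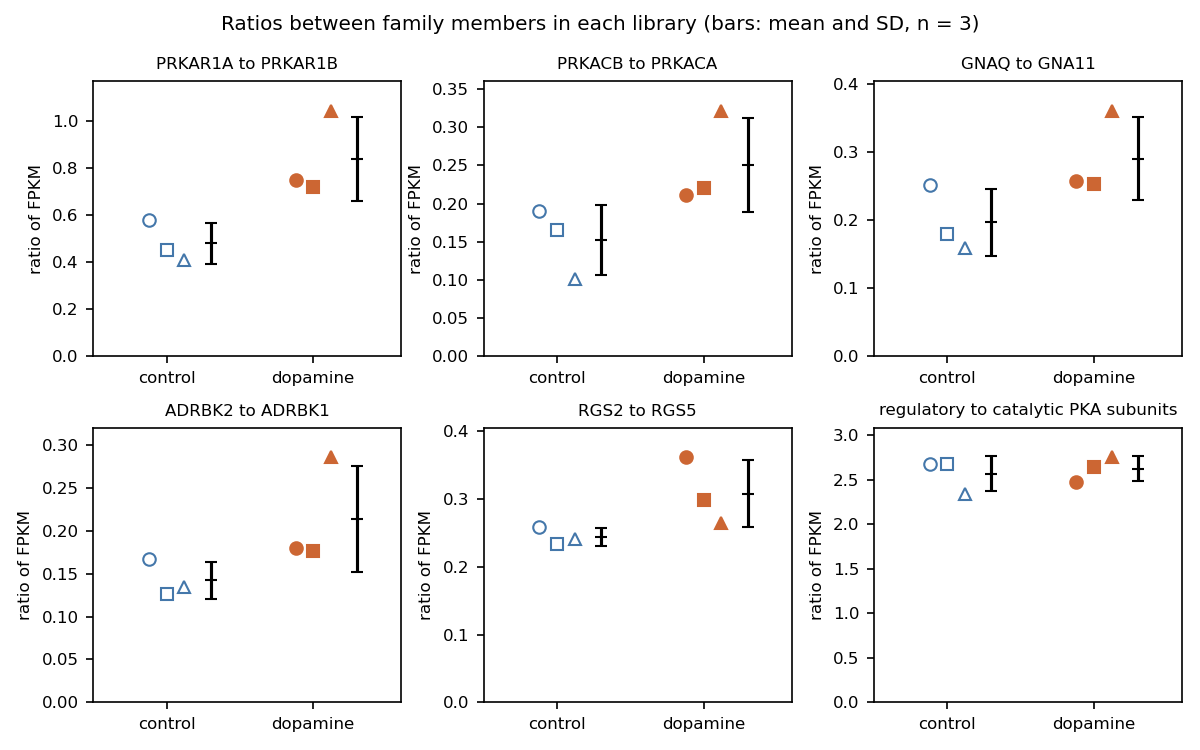
Ratios of FPKM between family members are shown in each library (open blue, control; filled orange, dopamine; circle, square and triangle, replicates 1, 2 and 3; bars, mean and SD). The ratio of PRKAR1A to PRKAR1B is higher in all dopamine libraries, whereas that of all regulatory to all catalytic PKA subunits, between 2.34 and 2.75, overlaps between the groups.

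Among the alpha subunits of the Gs class, GNAS was abundant at a like level in both groups. It had 89.4, 87.3 and 94.9 FPKM in control and 90.5, 86.3 and 83.9 FPKM in dopamine cells, and the groups overlapped. Its log2 fold change was -0.06 with a 95% interval from -0.22 to 0.10 (adjusted p = 0.576), and its sign turned in 4 of 19 alternative analyses. GNAL, the Golf alpha subunit gene through which the D1 receptor signals in the striatum, was barely detected at 0.0256 FPKM, and its span overlaps CHMP1B on the same strand.

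Of the Gi class, GNAI2 was as abundant as GNAS, and their ranges over the libraries overlapped. GNAI2 had 90.2, 92.0 and 101 FPKM in control and 83.7, 85.9 and 79.1 FPKM in dopamine cells, so that every dopamine value lay below every control value (log2 fold change -0.19, unadjusted p = 0.0366, adjusted p = 0.138). Its relatives GNAI1 and GNAI3 had higher means with dopamine. GNAI1 stood at 11.1701, 8.29 and 6.52 FPKM in control and 11.1748, 11.7 and 14.9 FPKM with dopamine (log2 fold change 0.54, unadjusted p = 0.0142), and here the groups were apart by less than the printed precision of most values. GNAI3 had means of 11.9 ± 3.13 and 17.1 ± 3.17 FPKM with overlapping groups (unadjusted p = 0.021). GNAI2 made up 77.6, 81.7 and 87.0% of the summed FPKM of the 3 GNAI genes in control and 76.3, 75.8 and 69.0% in dopamine cells. The neuronal gene GNAO1 and the pertussis toxin-resistant GNAZ were low, at 1.37 and 3.74 FPKM, and their groups overlapped. The ratio of GNAS to the 3 GNAI genes together was 0.787 ± 0.0260 in control and 0.773 ± 0.0476 in dopamine cells, also with overlap.

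The Gq class acts on phospholipase C, and the same kind of split appeared within the Gq and G12 classes. GNA11 had 28.1, 29.1 and 30.3 FPKM in control and 25.9, 27.5 and 23.7 FPKM with dopamine (log2 fold change -0.18, unadjusted p = 0.0499), while its paralogue GNAQ had means of 5.69 ± 1.21 and 7.36 ± 1.01 FPKM with overlap (unadjusted p = 0.0417). GNA12, the most abundant of the 4 genes, stood at 29.2, 27.9 and 27.7 FPKM in control and 28.4, 28.1 and 25.6 FPKM in dopamine cells, with overlap (log2 fold change -0.05, 95% interval -0.22 to 0.12). GNA13 had means of 6.44 ± 1.41 and 9.32 ± 1.93 FPKM, and the highest control value lay above the lowest dopamine value (unadjusted p = 0.0182).

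The beta and gamma subunit genes included the most abundant members. GNB2 led with 195, 208 and 185 FPKM in control and 176, 179 and 139 FPKM in dopamine cells, every dopamine value below every control value (log2 fold change -0.26, unadjusted p = 0.0354, adjusted p = 0.137). The gamma subunit gene GNG12 stood at 28.2, 27.6 and 22.7 FPKM in control and 28.7, 33.3 and 42.6 FPKM with dopamine (log2 fold change 0.40, unadjusted p = 0.0204). GNG5 and GNB1 followed GNB2 in level, at 119.5 and 76.0 FPKM, and with GNB4, GNB5, GNG2 and GNG4 (between 3.76 and 8.04 FPKM) they had overlapping groups and an unadjusted p above 0.05. GNG10 was listed at 0 in 4 of 6 libraries. Its span overlaps DNAJC25 on the same strand, which had a mean of 1.36 FPKM, and GNG5 has a near-identical copy, GNG5P2, in the table, so the values of GNG10 and GNG5 are uncertain.

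Adenylyl cyclase genes showed no member with an unadjusted p under 0.05. ADCY3 was the most abundant, with 13.7, 14.1 and 15.4 FPKM in control and 12.7, 13.6 and 11.4 FPKM in dopamine cells, groups that did not overlap (log2 fold change -0.19, 95% interval -0.40 to 0.02, unadjusted p = 0.0663). Its span overlaps CENPO on the opposite strand, at 11.9 FPKM. ADCY6, which Gi inhibits, stood at 9.59 FPKM, and ADCY9, ADCY7 and ADCY1 at 2.67, 2.45 and 1.03 FPKM, all with overlapping groups. The span of ADCY7 overlaps BRD7 on the opposite strand, at 5.74 FPKM. ADCY5, the main cyclase of the striatum, and ADCY8 were near the limit of detection, at 0.109 and 0.0242 FPKM.

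For receptor silencing, both beta-arrestin genes and 4 GRK genes were tested. ADRBK1, now named GRK2, was the most abundant, with 13.5, 14.3 and 13.9 FPKM in control and 13.2, 13.4 and 11.5 FPKM with dopamine (log2 fold change -0.13, 95% interval -0.33 to 0.07, unadjusted p = 0.187). The groups were apart, by little. Its paralogue ADRBK2, now GRK3, stood at 2.24, 1.80 and 1.88 FPKM in control and 2.38, 2.37 and 3.27 FPKM with dopamine (log2 fold change 0.35, unadjusted p = 0.0417). ARRB2 had means of 11.5 ± 0.454 and 10.1 ± 0.592 FPKM without overlap (unadjusted p = 0.0604). ARRB1, GRK5 and GRK6, at 2.53, 4.80 and 11.2 FPKM, had overlapping groups.

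Phosphodiesterase genes were low throughout. PDE4A, the most abundant, had 3.99, 3.69 and 4.58 FPKM in control and 3.70, 3.10 and 3.47 FPKM in dopamine cells, with overlap (log2 fold change -0.22, unadjusted p = 0.0954). Its span overlaps CDC37 on the opposite strand, at 131.7 FPKM, so its value is uncertain. PDE8A, a high-affinity cAMP enzyme gene, stood at 1.395, 1.26 and 1.15 FPKM in control and 1.76, 1.65 and 2.355 FPKM in dopamine cells, without overlap (log2 fold change 0.45, unadjusted p = 0.0151).

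The other 5 phosphodiesterase genes lay below the level for testing, and 4 of these had every dopamine value above every control value. Over all genes with a mean of 0.3 to 1 FPKM this held for 16.7%. PDE10A reached 0.3 FPKM only through its dopamine values, since its control mean was 0.243 FPKM. PDE4B had 0.423, 0.406 and 0.297 FPKM in control and 0.625, 0.722 and 0.812 FPKM in dopamine cells. PDE3B, PDE4D and PDE10A had means of 0.306, 0.443 and 0.243 FPKM in control and 0.497, 0.686 and 0.437 FPKM in dopamine cells, and PDE7A stood at 0.985 FPKM with overlap. With the level for testing lowered to a mean of 0.3 FPKM, PDE4B alone of these 5 had an unadjusted p under 0.05 (limma, unadjusted p = 0.00764, adjusted p = 0.14), where 27.7% of all genes did. Its log2 fold change was 0.48, and 0.19 once GC content and length were corrected for (unadjusted p = 0.122). For PDE3B, PDE4D, PDE10A and PDE7A the log2 fold changes were 0.30, 0.32, 0.33 and 0.19 before the correction. They were 0.03, -0.02, -0.06 and -0.05 after it (limma, unadjusted p between 0.654 and 0.85). PDE4B was singled out after its values were seen.

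AKAP12, an anchor that holds PKA near the membrane, had 16.1, 12.5 and 9.10 FPKM in control and 12.6, 14.0 and 19.2 FPKM in dopamine cells, with wide overlap (log2 fold change 0.28, 95% interval -0.17 to 0.74). Its mean was lower with dopamine when both libraries numbered 3 were left out. The Epac genes RAPGEF3 and RAPGEF4 were low, at 0.0752 and 0.510 FPKM, with overlapping groups.

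**Figure D3:**
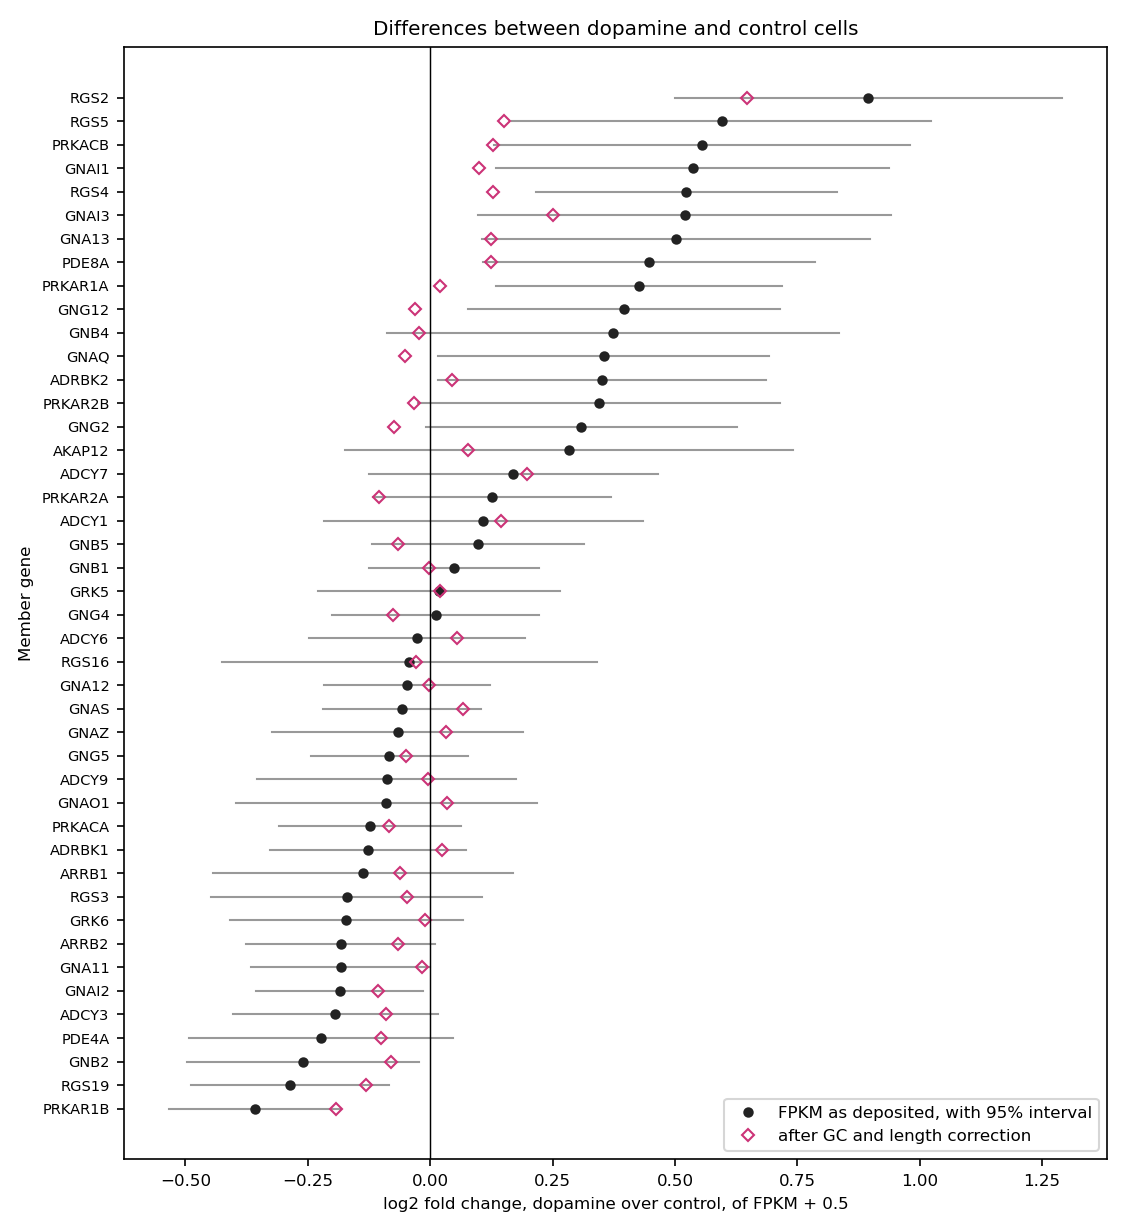
Each row is a tested member, with the log2 fold change of dopamine over control (on FPKM + 0.5) as a black point with its 95% interval, and the value after the GC and length correction as an open diamond. RGS2 keeps the largest value, 0.90 before and 0.65 after the correction, whereas PRKAR1A moves from 0.43 to 0.02 and GNG12 from 0.40 to -0.03.

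The direction of the differences followed the GC content of the transcripts. All 19 tested members with a GC content under 50% had a higher mean with dopamine, and 21 of 25 with more had a lower one. Over all tested genes, 90.4% of those under 50% were higher and 72.4% of the others were lower. Across the 44 members, the log2 fold change and GC content had a Pearson correlation of -0.925 and a Spearman correlation of -0.918. Across 11579 genes the values were -0.75 and -0.783. These points share their libraries, and the values are given as a description. The paralogue pairs were split in the same way: PRKAR1A has 39.2% GC and PRKAR1B 62.4%, PRKACB 37.9% and PRKACA 54.2%, GNAI1 37.1% and GNAI2 56.0%, and GNAQ 38.6% and GNA11 62.8%. The libraries themselves differed in how their values depended on GC content, with slopes from 0.02 to 0.22 log2 units per 10 points of GC content in control and from -0.26 to -0.03 in dopamine libraries.

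After a correction of each library for GC content and transcript length, 4 of 44 members (9.09%) had an unadjusted p under 0.05, against 16.8% of all genes. These were RGS2 (log2 fold change 0.65, unadjusted p = 0.00286, adjusted p = 0.146), GNAI3 (0.25, unadjusted p = 0.0383), RGS4 (0.13, unadjusted p = 0.0324) and PRKAR1B (-0.19, unadjusted p = 0.00377). The adjusted p of each was between 0.146 and 0.271 (limma). Differences between paralogues shrank as well: the log2 fold change of PRKAR1A exceeded that of PRKAR1B by 0.78 before and 0.21 after the correction, that of PRKACB exceeded that of PRKACA by 0.68 and 0.21, and that of GNAI1 exceeded that of GNAI2 by 0.72 and 0.21. For ADRBK2 against ADRBK1 the difference went from 0.48 to 0.02, and for GNAI3 against GNAI2 from 0.70 to 0.36. RGS2 against RGS5, which has 36.6% GC where RGS2 has 41.5%, went the other way, from 0.30 to 0.50. Since the dependence on GC content differed between the groups, the correction can also remove part of a real difference. It did not free the members' values of GC content. Across the 44 members, the corrected log2 fold change and GC content still had a Pearson correlation of -0.401 and a Spearman correlation of -0.386. Across 11579 genes these were -0.027 and -0.052.

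**Figure D4:**
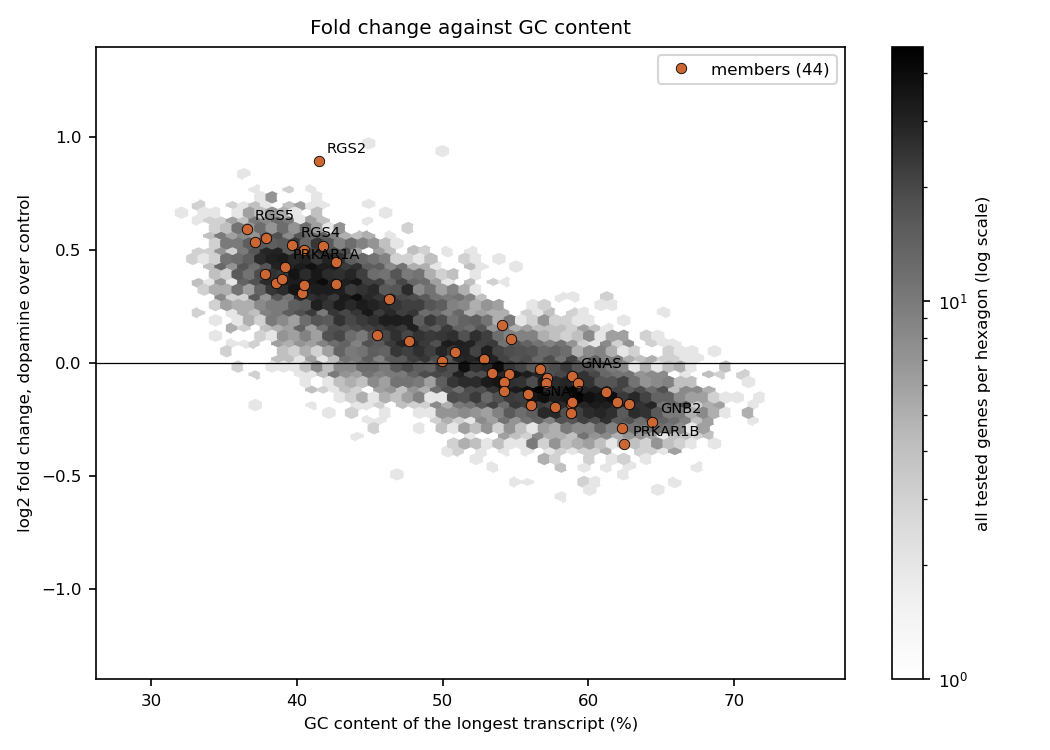
The log2 fold change of each gene is plotted against the GC content of its longest transcript, with the number of all tested genes in grey on a log scale and the 44 members in orange (2 genes beyond ±1.4 are not drawn). Members follow the band of all genes from positive values at low GC content to negative ones at high GC content, and RGS2, at 41.5% GC and 0.90, lies above the band.

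Other genes of the pathway were taken from a list of 78 symbols named for their role. Of the 41 that were tested, none passed the adjusted threshold, and 17 (41.5%, against 32.5% of all genes) had an unadjusted p under 0.05, 14 higher and 3 lower. After the GC and length correction 2 of 41 did, where 16.8% of all genes did: PDE7B and RGS10. RGS10, a regulator of the Gi class, is named here after its values were seen. It had means of 12.2 ± 0.557 and 10.8 ± 0.617 FPKM, and its groups did not overlap (limma, log2 fold change -0.17, unadjusted p = 0.0818, adjusted p = 0.198). Its log2 fold change was -0.31 after the correction (limma, unadjusted p = 0.000772, adjusted p = 0.0993). The smallest p among those higher belonged to PDE7B, a cAMP phosphodiesterase gene, with 0.887, 0.766 and 0.813 FPKM in control and 1.52, 1.64 and 1.88 FPKM with dopamine (log2 fold change 0.72, unadjusted p = 0.000455, adjusted p = 0.11 by limma, and 0.39, unadjusted p = 0.00595, after the correction). PDE7B passed the level for testing only through its dopamine values, since its control mean was 0.822 FPKM. CREM, a transcription factor gene of the cAMP response, had means of 1.72 ± 0.262 and 2.86 ± 0.251 FPKM (limma, unadjusted p = 0.00138, adjusted p = 0.11, and unadjusted p = 0.0659 after the correction). The gamma subunit gene GNG11 had means of 13.5 ± 1.06 and 17.6 ± 1.49 FPKM (limma, unadjusted p = 0.00393, adjusted p = 0.11, and unadjusted p = 0.775 after it). Among those lower, the Gi modulator gene GPSM1 had means of 18.7 ± 0.418 and 15.8 ± 1.52 FPKM (limma, unadjusted p = 0.0238, adjusted p = 0.122), the phosphatase gene PPP1CA 133.5 ± 7.40 and 114.7 ± 11.8 FPKM (unadjusted p = 0.0379, adjusted p = 0.14) and the CREB coactivator gene CRTC2 21.8 ± 1.59 and 19.0 ± 0.486 FPKM (unadjusted p = 0.0444, adjusted p = 0.148). After the correction their log2 fold changes were -0.06, -0.08 and -0.06, with unadjusted p between 0.173 and 0.388.

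The labelled cell type was checked against marker genes. Of the markers of adrenergic neuroblastoma cells, 12 were in the table and 11 were tested, led by HAND2 (130.1 FPKM) and PHOX2A (76.1 FPKM). All 8 mesenchymal markers were tested, with VIM at 874 FPKM. The summed level ran from 352.2 to 401.1 FPKM in control and 351.8 to 403.9 FPKM in dopamine cells for the first list, and from 1481 to 1669 and 1436 to 1515 FPKM for the second. In bulk samples, fewer cells of a type and less RNA per cell cannot be told apart. Of the epithelial markers, EPCAM and CDH1 were near 0 (0.152 and 0.0608 FPKM). KRT8, KRT18, KRT19 and CLDN4 had lower values in all dopamine libraries, which held for 14.1% of all tested genes. Their unadjusted p was 0.00202, 0.000425, 0.0881 and 0.156 (limma). Their GC content was 55.7 to 61.8%, and 72.4% of tested genes at 50% or more had a lower mean with dopamine. The epithelial list's sum was 141.8 to 176.2 FPKM in control and 107 to 122.8 FPKM in dopamine cells. Immune markers summed to at most 0.0939 FPKM. Nuclear-retained RNAs, a sign of RNA or library quality, had 3 of 5 members tested, all with higher means with dopamine, and sums of 10.1 to 15.8 FPKM in control and 15.6 to 23.2 FPKM in dopamine cells. Their part in the members' values was not tested.

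The steps between low values put the library depth between 19394000 and 24232000 fragments. For a gene 1 kb long, each FPKM was thus worth 19.4 to 24.2 fragments. At this depth the values near 0 of GNAL, PPP1R1B, ADCY8 and GNG10 rest on few fragments, and a difference between the groups was not detectable for them. Control replicate 3 and dopamine replicate 3 lay at opposite ends of the first principal component, which held 66.4% of the variance. Without both, 6 members had an unadjusted p under 0.05 (14.0%, against 13.1% of all genes): RGS2, RGS4, RGS5, RGS19, GNB2 and PRKAR1B. The number of members past the adjusted threshold was 10 without control replicate 1 (22.7%, against 18.6% of all genes), among them RGS2, RGS4, RGS5, PRKAR1A and PRKAR1B. It was 13 when libraries were weighted by their quality (29.5%, against 22.9% of all genes).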

How the data were processed

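RNA was measured in 3 control and 3 dopamine samples, grouped and numbered by their titles. The authors deposited FPKM values for 26789 genes with hg19 coordinates. Per the labels' protocols, ribosomal RNA was removed from total RNA and stranded libraries were made with random primers. The submitters' processing notes name hg19 and, with no role, STAR 2.7.1a, DESeq2 1.40.2, HTSeq 0.11.2 and FastQC 0.11.9. No source used here gives the annotation, the strand setting or how FPKM was made, so genes that overlap others or have near-identical copies are uncertain.

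The scale was log2(FPKM + 0.5), which understates the fold change of low genes. Those with a mean of 1 FPKM or more were tested in R 4.3.3 with limma 3.58.1 (intensity trend, two-sided, Benjamini-Hochberg, threshold 0.05). The GC and length correction took, in each library, the deviation of every gene from its mean and subtracted a loess fit (span 0.5) on the GC content and log2 length of its longest GENCODE transcript on GRCh38, matched by identifier for 98.2% of the tested genes. Promoters came from RefSeq. Depth was recovered from 2797 pseudogenes with a span of 150 to 1500 bases, taken to have a single exon, and 92.2 to 94.0% of the low values used came out whole within 0.03. The tests were checked on simulated data with independent noise and no dependence on GC content. The check therefore does not cover the GC dependence of these libraries.

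The members, the lists and the settings were chosen with earlier results of these data known. Values in every sample were given for the most abundant member of each role group and for tested members whose groups did not overlap at an unadjusted p under 0.05. Of the other pathway genes, the 3 smallest p in each direction were named. Alternatives were pseudocounts of 0.1 and 1, a filter at 0.3 or no filter, scaling by TPM, quantiles or median-of-ratios, quality weights, a replicate block, leaving out libraries, and the correction.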

Additional observations from a re-analysis of the deposited data

How the results depend on the processing

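Of the 20 tested members given with values in every sample, 16 kept their direction in all 19 alternative analyses. The log2 fold change of RGS2 lay between 0.63 and 1.09, that of RGS4 between 0.13 and 0.65 and that of PRKAR1B between -0.47 and -0.19. Direction turned for GNAS (0.0673 after the GC and length correction with or without the replicate block, 0.0563 with the correction at a filter of 0.3, 0.0008 without both libraries numbered 3), GNG12 (-0.0313 with or without the block, -0.0013 at 0.3), ADRBK1 (0.0247 with or without the block, 0.0125 at 0.3) and AKAP12 (-0.0952 without both libraries numbered 3). The correction at a filter of 0.3 was chosen after seeing the data. The cause was not tested.

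Members past the adjusted threshold numbered 0 in 17 of 19 analyses, 13 with quality weights, and 0 to 10 when 1 library was left out (10 without control replicate 1). Members at an unadjusted p under 0.05 numbered 17 (38.6%, against 32.5% of all genes), and 5 to 19 when 1 library was left out. Without control replicate 1 there were 19 (43.2%, against 37.8%), and without control replicate 3 there were 9 (20%, against 16.5%). Without dopamine replicate 3 there were 5 (11.6%, against 16.9%), and without both libraries numbered 3 there were 6 (14.0%, against 13.1%). After the correction there were 4 (9.09%, against 16.8%). There were also 4 with the correction and the block (9.09%, against 18.3%) or at a filter of 0.3 (8%, against 15.2%). The 17 other pathway genes at that level became 11 with the replicate block, 6 to 20 with 1 library left out (10 when control replicate 2 was missing, 6 for control replicate 3 or dopamine replicate 3), 3 without both libraries numbered 3, 2 after the correction, 3 with the block and 4 at a filter of 0.3.

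Over all genes, 12 passed the adjusted threshold. The number was 6 with no filter, 27 after quantile normalization, 2706 with quality weights, 3 with the replicate block, 3 to 2193 with 1 library left out (2193 when this was control replicate 1, 3 for control replicate 2, and 6 for control replicate 3, dopamine replicate 1 or dopamine replicate 3), 7 without both libraries numbered 3, 26 after the correction and 28 with it at a filter of 0.3. At an unadjusted p under 0.05 it was 3829, and 1954 to 4455 with 1 library left out (2274 when this was control replicate 2, 1954 for control replicate 3, 1980 for dopamine replicate 3), 1539 without both libraries numbered 3, 1948 after the correction, 2116 with the block and 2262 at a filter of 0.3.

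Whether replicate numbers pair the samples was not settled. The deviations of same-numbered samples from their group means correlated at -0.203, 0.282 and -0.367. Those of samples with different numbers lay between -0.378 and 0.419. These values include the differing dependence on GC content, so they cannot exclude pairing. After the GC and length correction, 1948 genes had an unadjusted p under 0.05 without the block and 2116 with it (limma). Without that correction, 12 members (27.3%, against 21.9% of all genes) had an unadjusted p under 0.05 with the replicate block (limma).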
